A study of Mus musculus with 8 samples.

Results

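A set of 10 genes of fatty acid handling was followed through the cell types of the mouse heart. They are Lpl, Cd36, Fabp3, Slc27a1, Acsl1, Cpt1a, Cpt1b, Slc25a20, Cpt2 and Crat, chosen by their symbols for their place in fatty acid uptake and the carnitine shuttle, 10 of the 32285 genes in the count tables. All but Crat, which acts on short acyl groups, serve the passage of long-chain fatty acids from blood lipoproteins to the mitochondrial matrix. Whole hearts of 9-week-old male mice were profiled by single-nucleus RNA-seq, 1 library per heart, from 4 wild-type (WT) mice and 4 mice in which the Tafazzin gene (Taz) is knocked out (Taz-KO), a model of Barth syndrome. Taz encodes the acyltransferase that remodels cardiolipin, a phospholipid of the inner mitochondrial membrane. The labels name no treatment. Mice are named by the number in their labels, WT replicates 4686, 4909, 5355 and 5356 and Taz-KO replicates 4685, 4910, 5300 and 5301.

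Fatty acids reach the heart largely as triglyceride in lipoproteins. Lipoprotein lipase, which cardiomyocytes and adipocytes make and endothelial cells hold on the capillary wall, frees them, and they cross the endothelium and the cardiomyocyte membrane with the help of CD36 and fatty acid transport proteins. Inside the cell they are bound by fatty acid binding proteins, joined to coenzyme A, passed to carnitine by carnitine palmitoyltransferase 1, carried across the inner mitochondrial membrane by the carnitine-acylcarnitine translocase and returned to coenzyme A by carnitine palmitoyltransferase 2. The heart draws most of its energy from this route.

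Cell types were taken from clusters of nuclei by a list of markers for each type, and each name below stands for nuclei that resembled that type. The pair of markers in brackets is part of the longer list that named the clusters. The cardiomyocytes (29487 nuclei, Ryr2 and Ttn), fibroblasts (38299, Pdgfra and Bicc1), endothelial cells (21458, Ptprb and Flt1), macrophages (12201, F13a1 and Mrc1) and adipocytes (827, Plin1 and Adipoq) made up 102272 of 151264 nuclei. Each barcode past the filters is counted as a nucleus here, but 6 of the 8 libraries held more barcodes than the number of nuclei that the methods say went into a library, and more barcodes were kept here than the study kept. Whether each barcode is 1 nucleus was not tested. Levels are unique molecular identifiers (UMIs) of a gene per 1000000 UMIs of nuclear genes (CPM), summed over the nuclei of 1 type in 1 mouse. A gene is called where the adjusted p of edgeR's quasi-likelihood test over all genes of the type was below 0.05. In nuclei, a lower level can come from fewer transcripts in each nucleus or from another mix of nuclei in the type, and sums of UMIs cannot tell these apart.

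The libraries were of unequal depth and cleanness. Totals ran from 20025456 UMIs in Taz-KO replicate 5301 to 348080773 in WT replicate 4909, and Taz-KO replicates 4685 and 5301 held 3492 and 5571 barcodes where every other library held at least 21190. Pairs of libraries shared barcodes at about the rate chance gives. The largest unnamed cluster, of 18987 nuclei with 31.5% mitochondrial UMIs, held markers of fibroblasts and of cardiomyocytes together, and its levels are given below as those of nuclei of no single type. In the endothelial nuclei, the level of Ryr2 and Ttn was that of a mixture with 6.86% to 20.6% cardiomyocyte RNA, and that of Myh6, Tnnt2 and Actc1 would need 12.5% to 99.5%, each time lowest in Taz-KO replicate 5301. Taz itself had 48.6 to 54.1 CPM in WT and 28.7 to 44.5 CPM in Taz-KO cardiomyocytes, with a log2 fold change of -0.65 (SE 0.18, edgeR adjusted p = 0.029). All mice of the 2 genotypes were apart in Taz in each of the 5 types, with Taz-KO lower, as in 6.96% of all genes tested in cardiomyocytes. Outside cardiomyocytes Taz was not called, with edgeR adjusted p of 0.105 in endothelial cells, 0.3 in fibroblasts, 0.209 in macrophages and 0.268 in adipocytes. Taz UMIs were present in every Taz-KO library, and the part of the gene that the deletion removes was not examined.

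For the carnitine steps that were lower in Taz-KO cardiomyocytes, the 250 bases before the start are shown for the 3 genes with 1 start each in the RefSeq table (GRCm38.p6), so that the regulatory sequence stands beside the values. Capitals mark GGGCGG, the core of the GC box, or AGGTCA, a site that many nuclear receptors bind, on either strand. Cpt1a lies on the plus strand (chr19:3323051-3323300), Slc25a20 on the plus strand (chr9:108661886-108662135) and Cpt2 on the minus strand (chr4:107923590-107923839), each written 5′ to 3′ toward its gene. The RefSeq starts differ from the GENCODE gene ends printed further on, so the Cpt1a window lies inside the GENCODE gene and those of Slc25a20 and Cpt2 run into theirs.
Cpt1a: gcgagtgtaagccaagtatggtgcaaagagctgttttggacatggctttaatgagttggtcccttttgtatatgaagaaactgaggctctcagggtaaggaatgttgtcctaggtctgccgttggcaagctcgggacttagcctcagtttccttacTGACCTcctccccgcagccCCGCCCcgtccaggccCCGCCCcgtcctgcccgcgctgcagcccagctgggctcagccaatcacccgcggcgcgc
Slc25a20: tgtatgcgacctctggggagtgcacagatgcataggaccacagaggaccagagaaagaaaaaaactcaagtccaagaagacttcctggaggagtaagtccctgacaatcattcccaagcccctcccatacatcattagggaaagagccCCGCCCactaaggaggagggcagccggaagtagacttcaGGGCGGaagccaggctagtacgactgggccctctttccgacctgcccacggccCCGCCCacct
Cpt2: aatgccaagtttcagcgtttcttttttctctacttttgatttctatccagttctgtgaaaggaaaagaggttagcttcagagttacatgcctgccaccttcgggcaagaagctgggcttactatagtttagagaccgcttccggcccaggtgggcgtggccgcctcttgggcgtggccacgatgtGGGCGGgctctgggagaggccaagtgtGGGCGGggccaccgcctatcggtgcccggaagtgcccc
All 3 windows held GGGCGG, with 2 matches before Cpt1a, 3 before Slc25a20 and 2 before Cpt2, and 6 of the 7 genes of the group with a window in the table had it in at least 1 window, against 35.4% of the 27025 genes in the table. By window, 7 of the 10 windows of the group held it, against 32.7% of all 32851 windows. AGGTCA was found once before Cpt1a and also before Cd36, against 14% of all windows. The direct repeat of AGGTCA with 1 base between the copies (DR1), the form bound by PPAR with RXR, was in 0.0335% of all windows and in none of those of the group, and TCAAGGTCA, the extended site of the estrogen-related receptors, was in 0.387% and in none of the group. At shares this small, finding none in 10 windows says nothing about the group. Lpl, Cpt1b and Crat had no window in the table and were not searched. These are matches of letters in a short window, and binding was not measured.

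In Taz-KO cardiomyocytes, 7 of the 10 genes were called lower and 0 higher, from the lipase (Lpl) and a transporter (Slc27a1) at entry through acyl-CoA synthesis (Acsl1) to 4 of the 5 shuttle genes (Cpt1a, Slc25a20, Cpt2 and Crat). Over all 18489 genes tested in cardiomyocytes, 6.56% were called lower and 8.85% higher. The log2 fold changes of the 10 genes ran from -1.35 to -0.43 with a median of -0.96, beside a median of -0.01 over all genes tested. In 7 of the 10 every Taz-KO mouse lay below every WT mouse, which held for 6.96% of all genes tested.

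At the entry of the route, Lpl (ENSMUSG00000015568, chr8:68880491-68907448, plus strand), the lipase that frees fatty acids from triglyceride, had 1018, 939, 1308 and 683 CPM in cardiomyocytes of the WT replicates 4686, 4909, 5355 and 5356. It had 497, 507, 472 and 263 CPM in the Taz-KO replicates 4685, 4910, 5300 and 5301. The groups did not overlap, and the means were 987 ± 257 CPM (SD, n = 4) and 435 ± 115 CPM (SD, n = 4), a WT level 2.48-fold that of Taz-KO (log2 fold change -1.31, SE 0.23, edgeR adjusted p = 0.00302). Slc27a1 (ENSMUSG00000031808, chr8:71568882-71587302, plus strand), the fatty acid transport protein FATP1, had 191, 236, 337 and 318 CPM in WT and 79.9, 104, 173 and 112 CPM in Taz-KO mice, in the same order of replicates. Its log2 fold change of -1.35 (SE 0.26, edgeR adjusted p = 0.00553) was the largest of the 10, and again no Taz-KO mouse reached a WT mouse.

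The other genes of uptake were not called. Cd36 (ENSMUSG00000002944, chr5:17781690-17888801, minus strand), the fatty acid translocase of the plasma membrane, had 1017, 1374, 1732 and 1855 CPM in WT and 854, 1264, 926 and 809 CPM in Taz-KO mice. Taz-KO replicate 4910 lay above WT replicate 4686, and the log2 fold change of -0.77 (95% interval -1.35 to -0.18) had an edgeR adjusted p of 0.0757. By DESeq2, Cd36 was called at -0.78 with an adjusted p of 0.0265. Fabp3 (ENSMUSG00000028773, chr4:130308595-130315463, plus strand), the fatty acid binding protein of heart muscle, had 391, 596, 636 and 332 CPM in WT and 359, 439, 577 and 207 CPM in Taz-KO mice. The groups overlapped over most of their range, with a log2 fold change of -0.45 (95% interval -1.01 to 0.12, edgeR adjusted p = 0.292). Its ends overlap those of Zcchc17 and Gm10570 on the other strand.

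**Figure D1:**
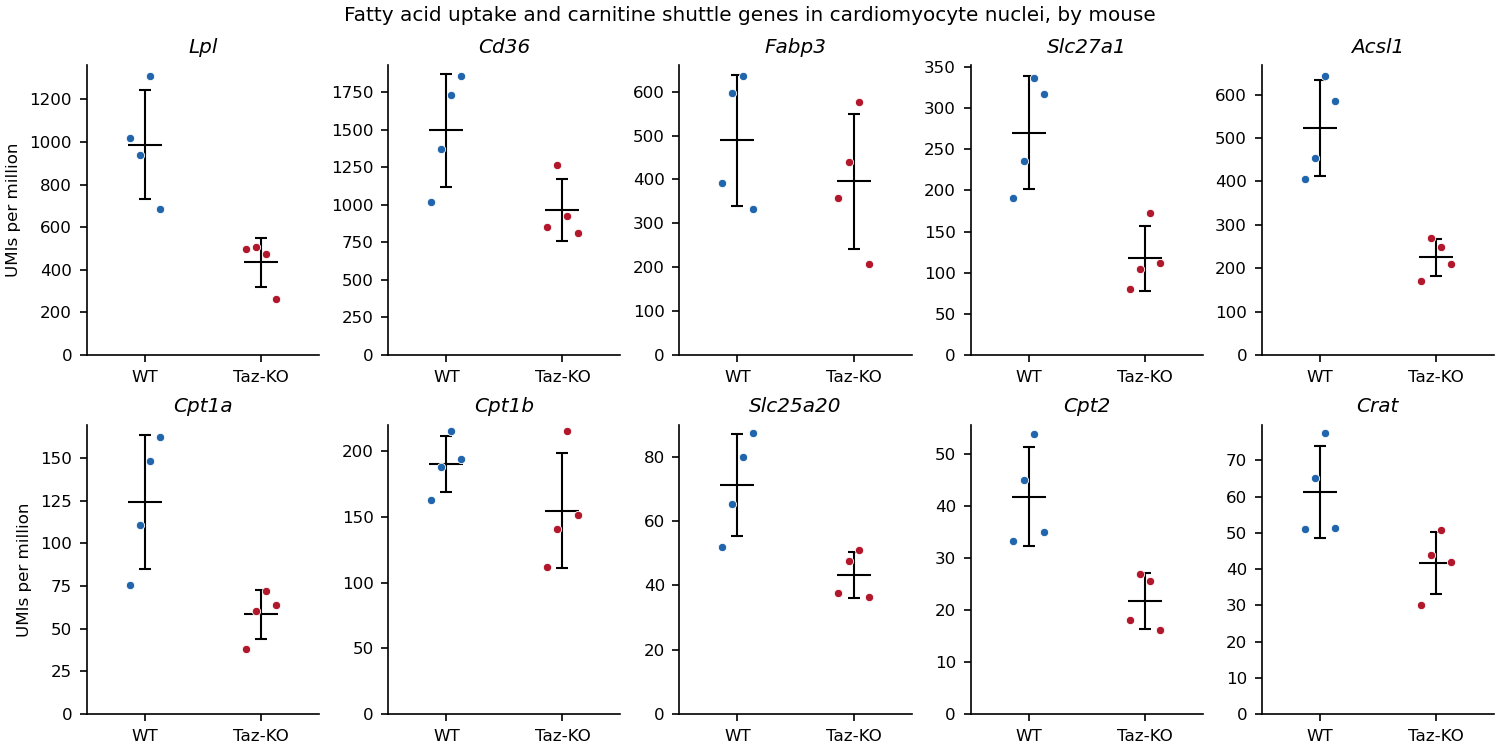
CPM (UMIs per 1000000, y axes from 0, 1 scale per gene) of the 10 genes in cardiomyocyte nuclei of each WT (blue) and Taz-KO (red) mouse, with the mean as a bar and whiskers of 1 SD. The groups stand apart in Lpl, Slc27a1, Acsl1, Cpt1a, Slc25a20, Cpt2 and Crat, and overlap in Cd36, Fabp3 and Cpt1b.

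Acsl1 (ENSMUSG00000018796, chr8:46471037-46536051, plus strand), the acyl-CoA synthetase that joins fatty acids to coenzyme A in heart muscle, had 406, 454, 644 and 584 CPM in WT and 171, 269, 249 and 210 CPM in Taz-KO cardiomyocytes. The highest Taz-KO mouse was well below the lowest WT mouse. The mean fell from 522 ± 111 to 225 ± 43.3 CPM (SD, n = 4 each), a log2 fold change of -1.34 (SE 0.23, edgeR adjusted p = 0.00307).

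The 2 forms of carnitine palmitoyltransferase 1, which commit acyl groups to the mitochondrion, differed in how they were called. Cpt1a (ENSMUSG00000024900, chr19:3322334-3385733, plus strand), the form first described in liver, had 75.4, 111, 148 and 162 CPM in WT and 38.1, 60.1, 71.9 and 63.7 CPM in Taz-KO cardiomyocytes. The groups were apart by a narrow margin, and the log2 fold change was -1.22 (SE 0.29, edgeR adjusted p = 0.017). Cpt1b (ENSMUSG00000078937, chr15:89416405-89425863, minus strand), the muscle form, had 163, 188, 215 and 194 CPM in WT and 112, 141, 215 and 151 CPM in Taz-KO mice. Gm44502 overlaps it on the same strand and has no row in the count tables. Taz-KO replicate 5300 was at the level of the highest WT mouse, and the log2 fold change of -0.43 (95% interval -0.87 to 0.01) was not called (edgeR adjusted p = 0.186).

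Within each mouse, the log2 ratio of Cpt1a to Cpt1b UMIs in cardiomyocytes was -1.11, -0.76, -0.54 and -0.26 in WT and -1.55, -1.23, -1.58 and -1.25 in Taz-KO mice. Every Taz-KO mouse had the lower ratio, with means of -0.67 ± 0.36 and -1.40 ± 0.19 (SD, n = 4 each). The 2-sided exact permutation p was 0.0286, the smallest that 4 against 4 mice can give, and 0.143 after Benjamini-Hochberg adjustment over the 5 cell types. In adipocytes the means were -0.92 ± 0.85 (SD, n = 4) and -3.04 ± 1.06 (SD, n = 3), with an exact permutation p of 0.0571, the smallest that 4 against 3 mice can give, and an adjusted p of 0.143. The value of -4.25 in Taz-KO replicate 5301 rests on 1 UMI of Cpt1a. In endothelial cells, fibroblasts and macrophages the groups overlapped, with differences between means of 0.08, -0.07 and 0.18 and exact permutation p-values of 0.857, 0.857 and 0.8.

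**Figure D2:**
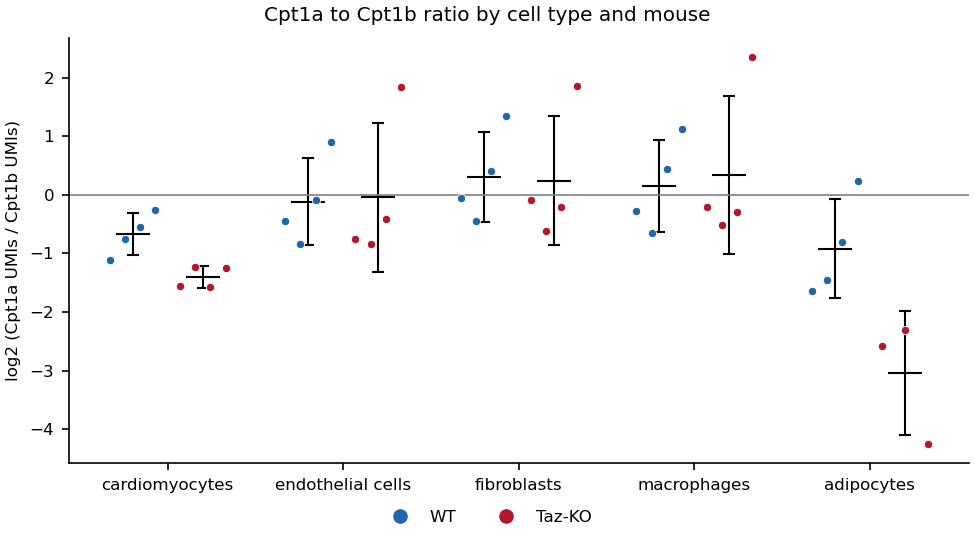
Log2 ratio of Cpt1a to Cpt1b UMIs (y axis) in 5 cell types (x axis) for each WT (blue) and Taz-KO (red) mouse, with the mean as a bar and whiskers of 1 SD. The genotypes are apart in cardiomyocytes and adipocytes and overlap in the other types.

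Farther along the shuttle, Slc25a20 (ENSMUSG00000032602, chr9:108662088-108684641, plus strand), the carnitine-acylcarnitine translocase, had 52.0, 65.4, 80.0 and 87.4 CPM in WT and 37.7, 47.4, 50.9 and 36.5 CPM in Taz-KO cardiomyocytes. The lowest WT mouse was just above the highest Taz-KO mouse, and the log2 fold change was -0.86 (SE 0.21, edgeR adjusted p = 0.0161). Cpt2 (ENSMUSG00000028607, chr4:107903981-107923610, minus strand), which returns acyl groups to coenzyme A in the matrix, had 33.2, 45.0, 53.7 and 35.02 CPM in WT and 18.1, 26.9, 25.5 and 16.1 CPM in Taz-KO mice. The WT level was 2.08-fold that of Taz-KO (log2 fold change -1.06, SE 0.19, edgeR adjusted p = 0.00349), with no overlap.

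Crat (ENSMUSG00000026853, chr2:30400471-30415813, minus strand), the carnitine acetyltransferase that buffers short acyl groups, had 51.0, 65.0, 77.5 and 51.4 CPM in WT and 30.0, 43.8, 50.7 and 42.1 CPM in Taz-KO cardiomyocytes. Here the highest Taz-KO mouse nearly met the lowest WT mouse. The log2 fold change of -0.66 (SE 0.19, edgeR adjusted p = 0.0351) was the smallest of those called, and leaving out any of 5 of the 8 mice ended the call, Taz-KO replicates 4685, 4910 and 5300 and WT replicates 4909 and 5355 (edgeR adjusted p of 0.0629 to 0.0901). Dolpp1 and Gm16323 overlap it on the other strand.

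The mix of cardiomyocyte clusters also differed between the genotypes. Cluster 1, the largest, held 69.4% ± 2.22 of WT and 44.2% ± 11 of Taz-KO cardiomyocyte nuclei (SD, n = 4 each), while cluster 11 held 4.17% ± 0.87 and 23.5% ± 4.13. Genes that differ between the genotypes took part in forming these clusters, and their shares were not tested. Within cluster 1 alone, 6 of the 10 genes were called lower, beside 4.29% of all genes tested there, with log2 fold changes of -1.20 for Lpl, -1.20 for Slc27a1, -1.20 for Acsl1, -1.07 for Cpt1a, -0.76 for Slc25a20 and -1.07 for Cpt2 (edgeR adjusted p of 0.00533 to 0.0459). Crat was at -0.59 there, with an edgeR adjusted p of 0.0991.

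Mean levels of Acsl1 and Lpl were lower in Taz-KO hearts in each of the 3 largest clusters. Acsl1 averaged 539, 499 and 475 CPM in clusters 1, 10 and 11 of WT hearts and 248, 197 and 209 CPM in those of Taz-KO hearts. Lpl averaged 986, 1269 and 903 CPM in WT and 457, 585 and 374 CPM in Taz-KO hearts. Fabp3 differed more between clusters, at 480, 719 and 468 CPM in WT and 392, 795 and 341 CPM in Taz-KO hearts. Clusters 1, 10 and 11 held 9.52%, 17.4% and 7.45% mitochondrial UMIs, with median depths of 2.40, 1.11 and 3.40 of that of the library. The part of depth and outside RNA in these differences was not tested. In the atrial cluster, Acsl1 averaged 330 CPM in 4 WT and 179 CPM in 3 Taz-KO mice, and Slc25a20 52.4 and 23.4 CPM. The Taz-KO values of Slc25a20 ran from 7.21 to 37.2 CPM, with few UMIs behind the lowest. Lpl averaged 865 and 473, Cpt1a 116 and 52.4, Slc27a1 235 and 162, Cpt2 37.2 and 27.7 and Crat 61.5 and 37.3 CPM in the same nuclei. The smallest relative differences there were in Cd36 at 1000 and 809, Fabp3 at 548 and 535 and Cpt1b at 141 and 129 CPM.

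**Figure D3:**
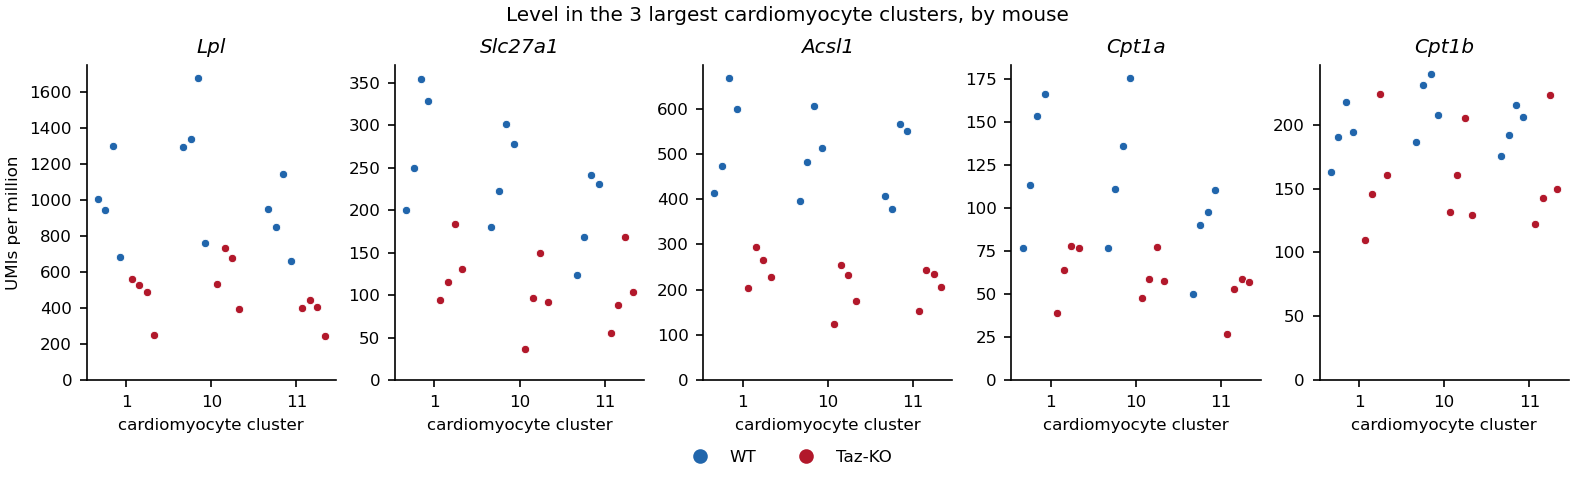
CPM (UMIs per 1000000, y axes from 0) of 5 genes in the 3 largest cardiomyocyte clusters (x axis) for each WT (blue) and Taz-KO (red) mouse. Lpl and Acsl1 are lower in every Taz-KO mouse than in every WT mouse in each of the 3 clusters, Slc27a1 overlaps in cluster 11, and Cpt1a and Cpt1b overlap in all 3.

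Leaving out both small libraries, Taz-KO replicates 4685 and 5301, left 4 genes called lower in cardiomyocytes, Lpl at -1.20, Slc27a1 at -1.22, Acsl1 at -1.22 and Cpt2 at -0.86 (edgeR adjusted p of 0.0298 to 0.0431, 4 WT against 2 Taz-KO mice), where 3.55% of all genes were called lower. Cpt1a was then at -1.15 (adjusted p = 0.0648), Slc25a20 at -0.76 (adjusted p = 0.113) and Crat at -0.58 (adjusted p = 0.101). Where each nucleus was typed by itself, as holding UMIs of both Ryr2 and Ttn and of no other pair of markers, 2 genes were called lower, Slc27a1 at -1.25 and Acsl1 at -1.15, beside 1.76% of all genes. Lpl was then at -0.97, Cpt1a at -0.91, Cpt2 at -0.71, Slc25a20 at -0.67 and Crat at -0.50, with edgeR adjusted p of 0.0669 to 0.227.

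In endothelial cells, the first barrier of the route, 0 of the 10 genes were called, where 0.0989% of all genes tested were called lower and 0.309% higher. Acsl1 was the only one of the 10 at an unadjusted p below 0.05, which 7.63% of all genes reached. By DESeq2 0 were called, where 91 of 16184 genes were called lower and 175 higher. Of the 10 log2 fold changes, 9 were below 0, with a median of -0.53 beside 0.02 over all genes. Lpl had 1224, 1489, 1728 and 499 CPM in WT and 916, 922, 902 and 262 CPM in Taz-KO endothelial cells (log2 fold change -0.79, 95% interval -1.89 to 0.31, edgeR adjusted p = 0.837). The mice with the lowest Lpl of each genotype, WT replicate 5356 and Taz-KO replicate 5301, were also those with the least cardiomyocyte RNA in their endothelial nuclei by Ryr2 and Ttn, 11.7% and 6.86%. By that measure cardiomyocyte RNA would bring a median of 99.0 CPM of Lpl over the 8 mice, beside a median level of 919 CPM. The share of the largest unnamed cluster, estimated from mitochondrial UMIs, would bring 1034 CPM. The part of outside RNA in the Lpl level was not tested.

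Cd36, through which endothelial cells take up fatty acids, had 1085, 1252, 1941 and 1961 CPM in WT and 663, 1454, 1086 and 964 CPM in Taz-KO endothelial cells. The groups overlapped, with a log2 fold change of -0.64 (95% interval -1.39 to 0.10, edgeR adjusted p = 0.746). Endothelial Fabp3 was 684, 1131, 896 and 215 CPM in WT and 1074, 1146, 1147 and 108 CPM in Taz-KO mice (log2 fold change 0.18, 95% interval -1.38 to 1.73). Its level in each mouse was below that of the same library's largest unnamed cluster in 8 of 8 mice. Estimates of its part from RNA outside these nuclei differed widely, beside a median level of 985 CPM. They were medians of 77.8 CPM by Ryr2 and Ttn, 295 CPM by Myh6, Tnnt2 and Actc1 and 1139 CPM by the largest unnamed cluster. Which of them holds was not tested.

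The test of the difference itself, cardiomyocytes against endothelial cells with the mouse as a block, called 0 of the 10 genes, where 0.484% of all genes were called lower and 1.19% higher. The difference was -0.06 for Cd36 (95% interval -0.55 to 0.43), -0.49 for Lpl (-1.18 to 0.21) and -0.55 for Acsl1 (-1.31 to 0.20). Cpt1a, the only one at an unadjusted p below 0.05, which 13.4% of all genes reached, came nearest, with a genotype effect 0.79 lower on the log2 scale in cardiomyocytes than in endothelial cells (difference -0.79, 95% interval -1.20 to -0.38, edgeR adjusted p = 0.0626). It was called by DESeq2 (-0.81, adjusted p = 0.00168), without the filter on low counts (-0.86, edgeR adjusted p = 0.0462) and without Taz-KO replicate 5301 (-0.80, edgeR adjusted p = 0.0411). With the profile of the largest unnamed cluster subtracted, an alternative chosen after seeing the data, this difference turned to 0.74, where the median over all genes moved to 0.63.

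**Figure D4:**
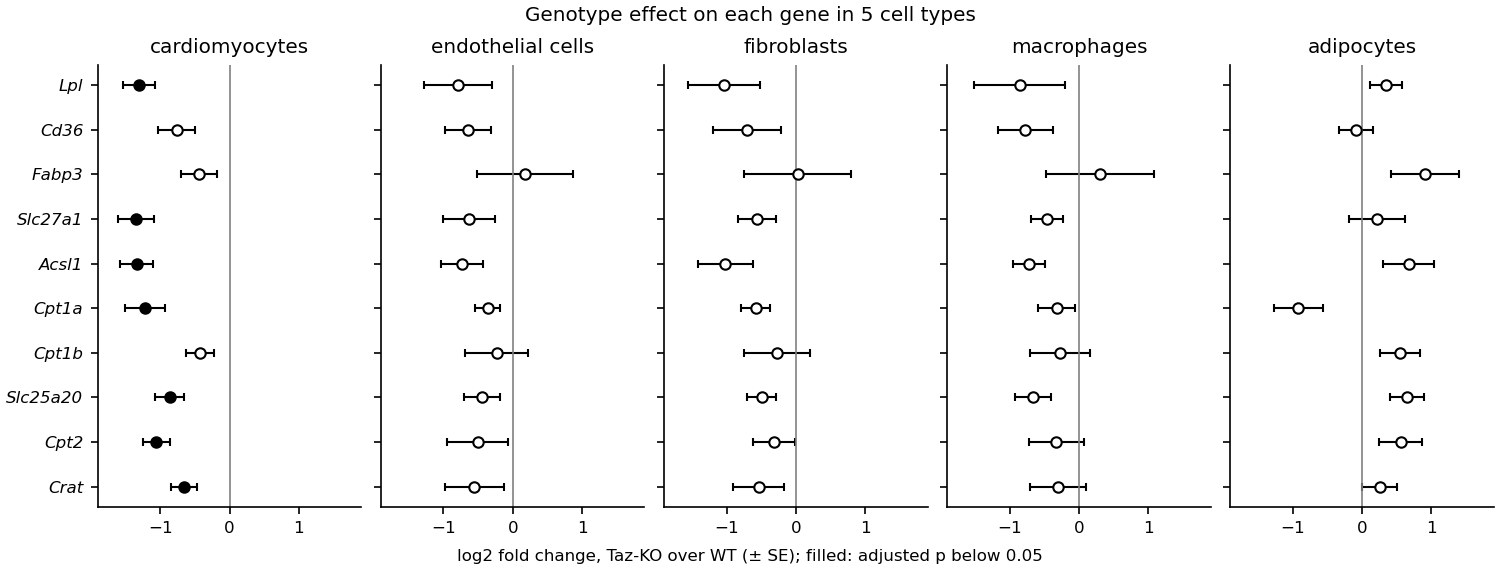
Log2 fold change of Taz-KO over WT (x axis, whiskers of 1 SE) of the 10 genes (y axis) in 5 cell types, filled where the adjusted p was below 0.05. All 10 lie below 0 in cardiomyocytes, 9 in endothelial cells, fibroblasts and macrophages each, and 2 in adipocytes.

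The endothelial nuclei fell into a vascular cluster and an endocardial cluster, the lining of the chambers. Cd36 averaged 1960 ± 608 CPM in the vascular and 770 ± 162 CPM in the endocardial nuclei of WT mice (SD, n = 4 each), and was higher in the vascular nuclei of 8 of 8 mice, by 1.80- to 3.004-fold in the WT and 1.87- to 5.16-fold in the Taz-KO mice. The highest ratio was that of Taz-KO replicate 5301, with 95 endocardial nuclei, and without it and replicate 4685, with 62, the Taz-KO ratios were 1.93 and 2.63. Gpihbp1, the capillary anchor of lipoprotein lipase, averaged 150 ± 45.5 and 57.8 ± 20.4 CPM in the same WT nuclei, and Fabp4, a binding protein of capillary endothelium, 1408 ± 369 and 550 ± 170 CPM. Lpl differed less, by 1.26- to 1.67-fold in the WT and 1.32- to 2.49-fold in the Taz-KO mice, or 1.32- to 1.55-fold in the latter without those 2 mice. The Cpt1a ratio of vascular to endocardial nuclei was 1.04 to 1.12 in WT and 0.93 to 2.05 in Taz-KO mice, the highest of them from 14 endocardial UMIs of replicate 4685, and was 1.00 and 1.03 in the Taz-KO mice without these 2. Gpihbp1, Fabp4 and Lpl were higher in the vascular nuclei of every mouse. Acsl1, Slc27a1 and Cpt2 were too, but Acsl1 by only 1.03-fold in replicate 5301, where endocardial Slc27a1 had 1 UMI and Cpt2 had 2. The vascular cluster held 26.1% mitochondrial UMIs and the endocardial cluster 22.4%, with a median depth of 0.784 and 0.965 of that of the library, and the part of these in the differences was not tested. The clusters had been formed without these genes, the 10 and those of the pathway lists having been left out of clustering.

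Across cell types, Acsl1, Slc27a1, Slc25a20 and Cpt1b had their highest WT means in cardiomyocytes and adipocytes. Acsl1 in WT mice averaged 1508 CPM in adipocytes, 522 in cardiomyocytes, 232 in macrophages, 203 in endothelial cells and 157 in fibroblasts, and the adipocyte and cardiomyocyte ranges each lay above the next without overlap. Slc27a1 averaged 270 CPM in cardiomyocytes and 237 in adipocytes, whose ranges overlapped, and 60.9 or less in the other 3 types. Slc25a20 averaged 117 CPM in adipocytes and 71.2 in cardiomyocytes, again with overlap, and 38.1 or less elsewhere. Cpt1b averaged 190 CPM in cardiomyocytes and 135 in adipocytes, and 84.6 or less in the others, each step within the spread.

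Cd36 averaged 1560 CPM in endothelial cells and 1495 in cardiomyocytes of WT mice, which did not differ beyond their spread, then 1136 in adipocytes, 936 in macrophages and 576 in fibroblasts. For Lpl the 5 WT means lay between 987 CPM in cardiomyocytes and 1235 in endothelial cells, and for Cpt2 between 41.6 and 45.4 CPM, with every neighbour overlapping. Fabp3 averaged 489 CPM in WT cardiomyocytes and 732 in endothelial cells. The same library's largest unnamed cluster was above the cardiomyocytes in 8 of 8 mice for Lpl and Fabp3, and in 7 of 8 for Cpt2 and Crat. By contrast Slc27a1 and Acsl1 were higher in cardiomyocytes than in that cluster in 8 of 8 mice, and Cd36 and Slc25a20 in 7 of 8. In endothelial cells, fibroblasts and macrophages, 8 of the 10 genes, all but Cd36 and Cpt1a, were below that cluster in at least 7 of 8 mice. Cd36 was below it in 8 of 8 mice in fibroblasts and macrophages and above it in 7 of 8 in endothelial cells, and Cpt1a was above it in 1, 3 and 6 of 8 mice in endothelial cells, fibroblasts and macrophages. How much of these levels came from RNA outside the nuclei was not tested.

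**Figure D5:**
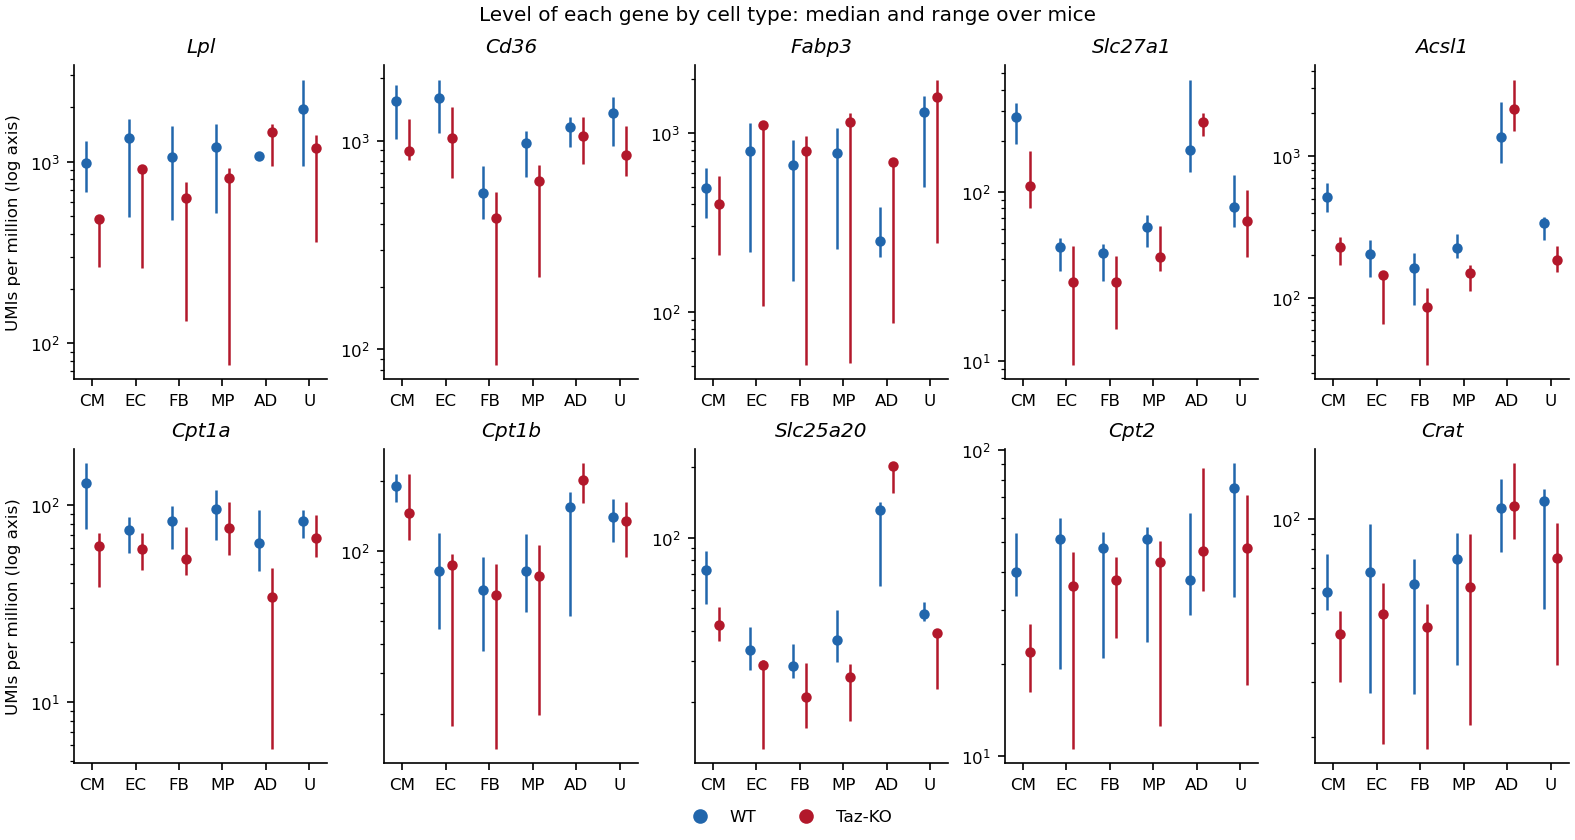
Median (point) and range (line) over mice of the CPM (UMIs per 1000000, log axis) of each gene in cardiomyocytes (CM), endothelial cells (EC), fibroblasts (FB), macrophages (MP), adipocytes (AD) and the largest unnamed cluster (U), in WT (blue) and Taz-KO (red) mice. Slc27a1, Acsl1 and Slc25a20 are highest in cardiomyocytes and adipocytes, while Lpl, Fabp3, Cpt2 and Crat reach their highest medians in WT mice in the unnamed cluster.

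The genes whose levels over the 39 sums of a mouse and a type were most like those of Cd36 were Fzd6 (r = 0.83), Egln1 (0.81) and Lama5 (0.79), by Pearson correlation of log2 values among 10454 genes. For Cpt1b they were Paqr9 (0.94), Cs (0.91), which encodes citrate synthase, and Mfn2 (0.91), a protein of mitochondrial fusion. These sums share mice, libraries and outside RNA, and the values are a description.

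In fibroblasts and macrophages, 0 of the 10 genes were called by edgeR's test in either direction, where 0.0787% and 0.0566% of all genes tested were called lower and 0.332% and 0.156% higher. Of the 10, 3 in fibroblasts and 2 in macrophages had an unadjusted p below 0.05, beside 9.84% and 6.12% of all genes. DESeq2 called 0 in both. Over all genes it called 108 of 17788 lower and 250 higher in fibroblasts, and 53 of 14125 lower and 84 higher in macrophages. In both types 9 of the 10 log2 fold changes were below 0, with medians of -0.55 and -0.39. Acsl1 in macrophages was 192 to 281 CPM in WT and 112 to 170 CPM in Taz-KO mice, without overlap, at a log2 fold change of -0.72 (edgeR adjusted p = 0.585). Slc25a20 in macrophages was 29.7 to 49.1 and 16.6 to 29.0 CPM, also without overlap (-0.66, edgeR adjusted p = 0.702). Every Taz-KO macrophage sum lay below every WT sum in 1.73% of all genes. The Acsl1 level was below that of the largest unnamed cluster in 8 of 8 mice, and that cluster had an Acsl1 median of 337 CPM in WT and 186 CPM in Taz-KO mice. With cardiomyocyte RNA subtracted by Myh6, Tnnt2 and Actc1, chosen after seeing the data, the log2 fold change in macrophages turned to 0.51, while in 18 of 19 alternatives it was below 0. That estimate came to 103% of the UMIs of the macrophages of Taz-KO replicate 4685, a share that cannot be.

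Adipocytes were few, with 42 to 145 nuclei in each WT mouse and 315, 148 and 20 in Taz-KO replicates 4910, 5300 and 5301, and Taz-KO replicate 4685 with its 6 nuclei was left out. Besides Plin1 and Adipoq they held Cidea (76.7 to 518 CPM), known from brown fat, and also Ttn at 1122 to 6643 CPM. Measured by Ryr2 and Ttn, RNA of cardiomyocytes came to 20.5%, 23.0%, 30.6% and 9.97% of their UMIs in WT and to 15.4%, 15.96% and 4.33% in the Taz-KO mice, with overlap. Measured by Myh6, Tnnt2 and Actc1 it was 20.4% to 36.8% in WT and 8.41% to 42.1% in Taz-KO mice. In adipocytes 8 of the 10 genes had log2 fold changes above 0, with a median of 0.45 beside 0.02 over all genes. By edgeR 0 were called, where 4.38% of all genes were called lower and 2.54% higher. By DESeq2 0 were called, where 362 of 11778 genes were called lower and 220 higher. The edgeR counts over all genes, 516 lower and 299 higher, hung on single mice. They were 11 and 5 without Taz-KO replicate 5300, 40 and 43 without 4910, and 888 and 765 without 5301. An unadjusted p below 0.05 was reached by 2 of the 10, Cpt1a and Slc25a20, and by 24.8% of all genes, so that this count is no result about the 10. Slc25a20 had 127, 141, 135 and 62.4 CPM in WT and 207, 154 and 201 CPM in these Taz-KO mice. Every Taz-KO mouse lay above every WT mouse, as in 6.6% of all genes tested, and the log2 fold change of 0.65 (95% interval 0.13 to 1.17) had an edgeR adjusted p of 0.119. With the RNA measured by Ryr2 and Ttn subtracted it was 0.64 (edgeR adjusted p = 0.187), and 0 of the 10 were called.

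Acsl1 had 897, 1336, 1405 and 2394 CPM in WT and 2158, 1507 and 3462 CPM in Taz-KO adipocytes (log2 fold change 0.67, edgeR adjusted p = 0.287). Lpl had 1021, 1098, 1042 and 1127 CPM in WT and 1459, 1611 and 943 CPM in Taz-KO adipocytes (0.35, edgeR adjusted p = 0.377). Cpt1a went the other way, with 46.0, 65.2, 94.6 and 62.4 CPM in WT and 33.9, 47.9 and 5.75 CPM in Taz-KO mice (-0.92, edgeR adjusted p = 0.131). The groups overlapped in all 3 of these genes. Fabp3 was at 0.91 (edgeR adjusted p = 0.292). Without Taz-KO replicate 5301 it was at 1.33 (edgeR adjusted p = 0.00436, 4 WT against 2 Taz-KO mice). In that fit 765 of 12726 genes were called higher and 888 lower. Those 2 mice, Taz-KO replicates 4910 and 5300, had 687 and 686 CPM of Fabp3. RNA of the largest unnamed cluster, estimated from mitochondrial UMIs, would bring 774 and 750 CPM. With that profile subtracted, Fabp3 was at -2.19, and the part of outside RNA was not tested.

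The genotype effect was then compared between cardiomyocytes and adipocytes in 1 fit with the mouse as a block, a test chosen after both sets of values had been seen. Of the 10 genes, 5 differed, all lower in cardiomyocytes, where 3.89% of all genes differed in that direction and 4.58% in the other. The differences of log2 fold change were -1.61 for Lpl (SE 0.32, edgeR adjusted p = 0.00472), -1.42 for Slc27a1 (0.31, 0.00985), -1.80 for Acsl1 (0.34, 0.00412), -1.23 for Slc25a20 (0.33, 0.0305) and -1.35 for Cpt2 (0.31, 0.0126). Cpt1a did not follow them, with a difference of 0.03 (95% interval -0.70 to 0.77). With a share of 0.2 of the UMIs of each sum subtracted with the profile of the whole library the differences were -1.59 to -2.05. Then 0 of the 10 passed, with edgeR adjusted p-values of the 5 genes from 0.0621 to 0.176. Of all 15581 genes tested there, 14 passed as lower in cardiomyocytes and 29 as higher. Without Taz-KO replicate 4910, 2 passed (Lpl and Acsl1), where 86 of 16518 genes passed as lower and 148 as higher. Without WT replicate 5355, 3 passed, where 151 of 15656 genes passed as lower and 288 as higher.

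Other genes of the same pathway were read from 5 lists, with 45 genes in all. In cardiomyocytes, 39 of the 45 were tested, of which 8 were called lower and 1 higher, beside the 6.56% and 8.85% of all genes tested. Of the 3 genes that set malonyl-CoA, the inhibitor of carnitine palmitoyltransferase 1, 2 were called lower, Acacb, which makes it at the mitochondrion (566 ± 69.5 CPM in WT and 335 ± 58.9 in Taz-KO, log2 fold change -0.86, edgeR adjusted p = 0.0287), and Mlycd, which degrades it (44.3 ± 13.6 and 21.9 ± 3.69 CPM, -1.15, edgeR adjusted p = 0.00726). The groups did not overlap in either gene. Acaca, the other enzyme that makes malonyl-CoA, was at 0.31 (edgeR adjusted p = 0.32).

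Of the 8 genes of carnitine supply and acylcarnitine transfer, 2 were called lower in cardiomyocytes, 1 higher and 5 neither, with a median log2 fold change of -0.11. Slc22a5, the carnitine importer OCTN2, fell from 57.6 ± 14.2 to 30.5 ± 1.24 CPM (SD, n = 4 each, log2 fold change -1.04, edgeR adjusted p = 0.00471). Aldh9a1, a dehydrogenase of carnitine synthesis, fell from 71.7 ± 9.22 to 31.9 ± 10.3 CPM (-1.29, edgeR adjusted p = 0.00271). Bbox1, of the last step of that synthesis, rose at very low levels, 0.231 and 0.844 CPM, with overlap (1.91, edgeR adjusted p = 0.0192).

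Of the 12 genes of activation and acyl-CoA handling, 11 were tested, 3 called lower and 0 higher in cardiomyocytes, with a median of -0.45. Acsl6, an acyl-CoA synthetase, fell from 10.48 ± 3.03 to 1.63 ± 0.37 CPM (-2.78, edgeR adjusted p = 0.000247), Acot7, a thioesterase, from 72.0 ± 8.61 to 38.5 ± 6.95 CPM (-1.01, edgeR adjusted p = 0.00971) and Acsl3 from 11.6 ± 1.56 to 7.72 ± 1.93 CPM (-0.75, edgeR adjusted p = 0.038). In adipocytes 3 of the 9 tested were called higher and 0 lower, beside 2.54% and 4.38% of all genes tested. Those shares hung on single mice, with 5 higher and 11 lower of 12798 genes without Taz-KO replicate 5300. The 3 genes called were the thioesterase Acot2 (2.26, edgeR adjusted p = 0.00816), and the synthetases Acsl5 (1.74, edgeR adjusted p = 0.0173) and Acsl3 (0.86, edgeR adjusted p = 0.0397), the last called in the opposite direction to cardiomyocytes.

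Of the 10 genes of endothelial fatty acid transport, only Nrp1 was called in cardiomyocytes, a receptor for Vegfb, falling from 743 ± 123 to 279 ± 81.9 CPM (-1.54, edgeR adjusted p = 0.00209). Vegfb itself was at -0.19 (edgeR adjusted p = 0.417). Of the 12 genes of lipoprotein lipolysis, 7 were tested in cardiomyocytes and 0 were called, among them Angptl4, an inhibitor of lipoprotein lipase, at -1.74 (SE 0.89, edgeR adjusted p = 0.245). None of the 38, 40 and 35 tested genes of the 5 lists was called by edgeR's test in endothelial cells, fibroblasts and macrophages, where 6, 7 and 4 had an unadjusted p below 0.05, beside 7.63%, 9.84% and 6.12% of all genes. In endothelial cells Gpihbp1 was at -0.22 (edgeR adjusted p = 0.959) and Fabp4 at -0.23 (edgeR adjusted p = 0.979).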

How the data were processed

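The deposited values are UMI counts, 1 matrix for each of 8 libraries, which the authors made with Cell Ranger 6.0.1 on mm10 with intronic reads counted, per the labels and the methods. The authors corrected for ambient RNA after that step, per the methods. For the main values here no ambient RNA was subtracted. A minimum of 800 UMIs and 250 detected genes left 167495 of 169193 barcodes. After 16231 presumed doublets were removed, 38 Leiden clusters, formed without the 10 genes and the pathway lists, were named from fixed markers and 27.6% of nuclei stayed unnamed. Mitochondrial genes were left out. Counts were summed per mouse and type (at least 10 nuclei) and tested with edgeR 4.0.16 (TMM, quasi-likelihood, Benjamini-Hochberg adjustment over all genes of a type) in R 4.3.3. DESeq2 1.42.0, other filters, subtraction of outside RNA, other cell typing and each mouse left out were alternatives. Scripts were tested on simulated data. Cluster naming rules were set after cluster scores were seen. All genes of the group and 5 pathway lists were chosen with earlier results of these data known. Named genes are the 10, Taz, up to 3 called genes of each list and type with the largest change, and the 3 genes most like Cd36 and Cpt1b. Others (Acaca, Gpihbp1, Fabp4, Vegfb and Angptl4) were picked after their values were seen, beside cell type markers and genes that overlap the 10. Intervals of 95% use the t distribution with the degrees of freedom of the quasi-likelihood test. The labels do not say whether libraries were made on different days.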

Additional observations from a re-analysis of the deposited data

Results flagged for a closer look

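In 90 groups of 4 mice, 7 held a mouse whose gap to the nearest other was over Dixon's 95% critical share of the range, where chance gives about 1 in 20. All 7 were the lowest value of Taz-KO replicate 5301, the library with the fewest UMIs, the least mitochondrial UMIs and the least cardiomyocyte RNA in its other nuclei. Lpl was at 263 CPM in its cardiomyocytes against 472 CPM in the next mouse, at 262 against 902 CPM in endothelial cells and at 75.8 against 784 CPM in macrophages. Fabp3 was at 108 against 1074 CPM in endothelial cells and at 51.9 against 1133 CPM in macrophages. Acsl1 was at 66.2 against 144 CPM and Slc25a20 at 12.6 against 28.8 CPM in endothelial cells. Without this mouse, Lpl in cardiomyocytes was still called lower.

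The genotype effect differed between cardiomyocytes and adipocytes in 5 genes by the test of the difference itself, chosen after the values were seen, Lpl (-1.61), Slc27a1 (-1.42), Acsl1 (-1.80), Slc25a20 (-1.23) and Cpt2 (-1.35), as differences of log2 fold change. Of all genes tested, 3.89% differed in that direction and 4.58% in the other. Adipocytes of 4 WT and 3 Taz-KO mice entered the fit. With an ambient share subtracted the 5 genes did not pass, and fewer passed without Taz-KO replicate 4910.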

How the results depend on the processing

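Of the 10 genes, the number called lower in Taz-KO cardiomyocytes was 7, was 6 to 8 with 1 mouse left out, and moved to 4 without Taz-KO mice 4685 and 5301 (fewer samples) and to 2 where nuclei were typed one by one. Of all genes tested, 6.56% were called lower as reported, and 850 to 1120 genes with 1 mouse left out. The share was 3.55% without those 2 mice and 1.76% by single nuclei. Slc27a1 and Acsl1 were called lower in cardiomyocytes under all 20 alternatives and Crat under 10. The number whose genotype effect differed between cardiomyocytes and endothelial cells moved from 0 to 1 by DESeq2, to 1 without the filter on low counts, and was 0 to 1 with 1 mouse left out. Over all genes, 228 of 17778 were lower in cardiomyocytes by DESeq2 and 149 of 28617 without the filter. With 1 mouse left out, 19 to 160 genes were. The number that differed between cardiomyocytes and adipocytes, 5, moved to 0 with an ambient share subtracted, to 2 with the profile of the largest unnamed cluster subtracted, and was 2 to 7 with 1 mouse left out. Over all genes, 621 of 15974 were lower in cardiomyocytes as reported. This moved to 14 of 15581 and to 63 of 15597 in those 2 settings, and was 86 to 1231 genes with 1 mouse left out. The number called higher in adipocytes moved from 0 to 1 without Taz-KO mice 4685 and 5301, where 765 of all 12726 genes were called higher. It was 0 to 1 with 1 mouse left out, where 5 to 765 of all genes were called higher. Alternatives that subtract the profile of the largest unnamed cluster or the RNA measured by Myh6, Tnnt2 and Actc1, or that keep 1 cardiomyocyte or endothelial cluster, and the comparison with adipocytes were chosen after seeing the data.

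The difference in the log2 ratio of Cpt1a to Cpt1b between genotypes turned in endothelial cells to -0.39 by single nuclei and to -0.50 without Taz-KO mice 4685 and 5301, and in macrophages to -0.56 without these 2. With 1 mouse left out its range was -0.55 to 0.42 (endothelial cells), -0.61 to 0.27 (fibroblasts) and -0.49 to 0.50 (macrophages).

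Other log2 fold changes that turned direction were not called in the test as reported. By single nuclei, Fabp3 in cardiomyocytes was at 0.035, Cpt1b in endothelial cells at 0.0045 and the cardiomyocyte minus endothelial difference of Slc27a1 at 0.079. Without Taz-KO mice 4685 and 5301, Cpt1b was at 0.14 in endothelial cells, 0.26 in fibroblasts and 0.18 in macrophages, Cd36 in adipocytes at 0.068 and the cardiomyocyte minus adipocyte difference of Cpt1a at -0.23. Without the filter on low counts, Fabp3 in fibroblasts was at -0.0096 and that Cpt1a difference at -0.059. With the RNA measured by Ryr2 and Ttn subtracted, Slc27a1 was at 0.68 in endothelial cells, 0.45 in fibroblasts and 0.54 in macrophages, and Cd36 in adipocytes at 0.065. With that measured by Myh6, Tnnt2 and Actc1 subtracted, Cpt1a was at 0.75 in endothelial cells, 0.25 in fibroblasts and 0.47 in macrophages, Acsl1 in macrophages at 0.51, Cpt2 at 0.043 in fibroblasts and 0.073 in macrophages, Cd36 at 0.0023 in fibroblasts and 0.12 in adipocytes, and Cpt1b and Slc25a20 in fibroblasts at 0.66 and 0.12. With the profile of the largest unnamed cluster subtracted, Cpt2 in fibroblasts was at 1.33, Slc27a1 in macrophages at 0.44, Cd36 and Fabp3 in adipocytes at 0.093 and -2.19, the cardiomyocyte minus endothelial differences of Cd36 and Cpt1a at 0.48 and 0.74, and the cardiomyocyte minus adipocyte difference of Fabp3 at 0.86. The cause of these turns was not tested.

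With 1 mouse left out, log2 fold changes that crossed 0 ran in adipocytes from -0.30 to 0.068 for Cd36, -0.037 to 0.82 for Cpt2, -0.042 to 0.37 for Crat and -0.017 to 0.70 for Slc27a1. They ran for Cpt1b from -0.43 to 0.061 in endothelial cells and -0.53 to 0.023 in fibroblasts, and for Fabp3 from -0.13 to 0.54 in endothelial cells, -0.30 to 0.40 in fibroblasts and -0.0042 to 0.66 in macrophages. The cardiomyocyte minus endothelial difference ran from -0.21 to 0.055 for Cd36, -0.56 to 0.098 for Cpt1b and -0.44 to 0.089 for Crat, and the cardiomyocyte minus adipocyte difference of Cpt1a from -0.23 to 0.22. No typing of single nuclei could be fitted for fibroblasts, macrophages and adipocytes, since fewer than 2 mice of a genotype kept enough nuclei. No paired analysis was made, because the labels do not say whether any WT and Taz-KO mice belong together.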
